A study of Mus musculus with 30 samples.

Results

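Nucleolin immunoprecipitates (IP) from crushed mouse sciatic nerve were compared with those from intact nerve. The comparison used 6 of the study's 30 libraries: 3 nucleolin IPs from naive nerve and 3 from nerve taken 7 days after crush. Each library came from axoplasm, here the supernatant of nerve ground in transport buffer and centrifuged, with 10 nerves pooled per sample and 3 independent biological repeats per the labels. The crush was made with forceps at mid-thigh; no source used here gives strain, sex, age or genotype of the mice. As background, the same antibody had been incubated with its blocking peptide before the IP (blocked IP, 3 naive and 3 injured libraries), and total RNA of the extracts was sequenced as input (3 naive and 3 injured). Members were the transcripts listed in both nucleolin tables: 11862 of 14181 in the naive table (83.65%) and of 15841 in the injured table (74.88%). Of these, 11840 passed the filter on low counts.

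Nucleolin is an abundant RNA-binding protein of the nucleolus, where it serves ribosome assembly, and it is also found in cytoplasm and at the cell surface, where it binds mRNAs. In axons it has been described as a carrier of localized mRNAs. Crush severs axons within a largely continuous nerve sheath. Distal to the crush the axons break down, Schwann cells stop making myelin, macrophages enter and clear the debris, and Schwann cells, fibroblasts and endothelial cells divide. An extract of whole nerve holds RNA of all these cells, so a difference in the IP can follow a difference in RNA abundance. In such bulk samples fewer cells of a type and less RNA per cell cannot be told apart.

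The 6 IP libraries held 10343812 to 14535403 counts over the shared transcripts, and 0.00843% to 1.096% of those transcripts were at 0 in a library. Levels are given in CPM (counts scaled to an equal library total, TMM-adjusted). Replicates were compared over transcripts with a mean count of at least 10. Their correlations, of log2 CPM scaled by library totals without TMM, ran from 0.776 to 0.913. No replicate pair agreed within sampling noise: the chi-square per degree of freedom was 120 (naive) and 95.8 (injured) between libraries 1 and 2, and 226 to 519 for pairs with library 3. By correlation, naive libraries 2 and 3 were the most alike naive pair (0.835, against 0.82 for 1 and 2). Transcripts set aside as possible sites of ribosomal RNA reads (Yam1, Lars2 and Gm15564) took 0.314%, 0.170% and 0.941% of counts in naive and 2.94%, 1.82% and 5.00% in injured IP libraries. As a check of the label axoplasm, neuronal markers were sparse: 3 of 11 were listed in both tables, and the 3 together stood at 579, 278 and 64.5 CPM in naive libraries 1 to 3 and at 75.4, 16.1 and 23.3 CPM in injured ones. The 22 markers of myelinating Schwann cells summed to 21951 to 41084 CPM in naive and 5069 to 9672 CPM in injured libraries.

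The question was which RNAs recovered with nucleolin differ between intact and injured nerve. Of 11840 transcripts tested, 98 (0.828%) passed at an adjusted p of 0.05 by edgeR's quasi-likelihood test: 47 rose (0.397%) and 51 fell (0.431%), from 97 genes. Rises were led by genes of lysosomes and macrophages, with a chemokine, lipid-handling genes and genes of dividing cells; falls were led by genes of nerve sheath fibroblasts and of lipid synthesis. All 98 had groups that did not overlap, as did 28.8% of all tested transcripts (14.8% with injured above naive, 14% with naive above injured). By annotation 97.96% of the called transcripts were protein coding, against 74.56% of those tested; the exceptions were Snhg18, a long noncoding RNA, and a processed transcript of Plin2. Counts at an unadjusted p under 0.05 came to 1466. The count depended on which libraries shared the estimate of spread: with the 6 IP libraries alone 228 rose (1.96%) and 267 fell (2.3%), or 4.26% of 11625 together, which included 97 of the 98. With the replicate number as a block in the fit of 12 libraries 334 passed, all 98 among them. Without library 3 of every group no transcript passed (1195 at an unadjusted p under 0.05, smallest adjusted p = 0.0508).

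**Figure D1:**
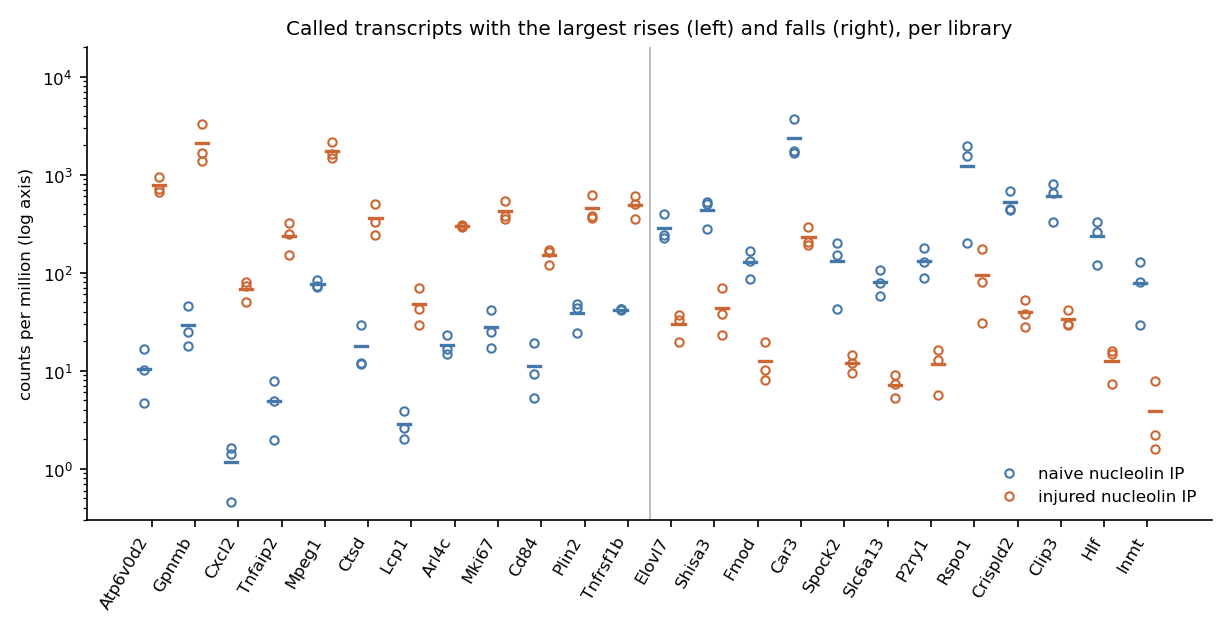
CPM (log axis) in each of the 3 naive (blue) and 3 injured (orange) nucleolin IP libraries, with group means as bars, for 12 of the largest rises (left) and the 12 largest falls (right). Cenpk, with 2 counts over the naive libraries, is left out. The groups do not overlap for any of the 24 transcripts. Rspo1 comes closest, with its lowest naive library at 198 CPM and its highest injured library at 174 CPM.

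Lysosomal genes held some of the largest rises. Atp6v0d2 encodes a subunit of the vacuolar proton pump that acidifies lysosomes (chromosome 4, 19876841 to 19922605 on GRCm38, minus strand, 8 exons). It stood at 16.5, 4.65 and 10.3 CPM in naive libraries 1 to 3 and at 954, 716 and 664 CPM in injured ones. Even the lowest injured library was far above the highest naive one, and the log2 fold change was 6.21 (SE 0.68, adjusted p = 0.00424). Gpnmb, a glycoprotein of phagocyte lysosomes (chromosome 6, 49036615 to 49058182), had 18, 24.9 and 45.9 CPM in naive and 1678, 1390 and 3247 CPM in injured libraries. Library 3 was the highest in each group, which still left the groups fully apart (6.15, SE 0.82, adjusted p = 0.00614). Ctsd, an aspartic protease of the lysosome (chromosome 7, 142375911 to 142388038), went from 11.8, 12.1 and 29.2 CPM to 244, 331 and 503 CPM. Its log2 fold change was 4.34 (SE 0.51, adjusted p = 0.00424). The transcript shares 38% of its exon bases with Gm49369 on the same strand, so its reads could belong to either. Cd68, a lysosomal membrane glycoprotein that marks macrophages, had 24.7, 26.3 and 54.7 CPM against 171, 195 and 519 CPM (3.06, SE 0.61, adjusted p = 0.0383). Laptm5, a lysosomal membrane protein of blood cells, had 600, 482 and 160 CPM against 3791, 2641 and 1543 CPM (2.68, SE 0.52, adjusted p = 0.0377). Library 3 was the lowest in both groups for Laptm5 and the highest in both for Cd68.

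Of 33 lysosome and proton pump genes tested, these 5 rose and 0 fell, against 0.397% and 0.431% of all transcripts. The same shares of all transcripts apply beside the main calls of every list below. Beside list counts from the 6 IP libraries alone, the shares of all tested transcripts were 1.96% higher and 2.3% lower. The median log2 fold change of the list was 1.32, where that of all tested transcripts was -0.08. The log2 fold change was positive in 31 of 33, and 21 had all injured libraries above all naive ones, as had 14.8% of all tested transcripts. The cathepsins with the highest levels did not pass: Ctsb had 848, 1135 and 2631 CPM in naive and 5812, 5426 and 12225 CPM in injured libraries (2.35, adjusted p = 0.107). Ctsl had 130, 172 and 536 CPM against 724, 804 and 2520 CPM (2.27, adjusted p = 0.176). For both, the groups did not overlap and library 3 was the highest in each. Atp6v1a, Gusb (1.74) and Atp6v1b2 (1.67) passed with the 6 IP libraries alone, where 8 list members did.

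Macrophage genes rose alongside. Mpeg1, which encodes the pore-forming perforin-2 of macrophages (chromosome 19, 12460779 to 12465283), stood at 84.5, 72.9 and 72.0 CPM in naive libraries and at 1477, 1612 and 2144 CPM in injured ones. Its naive libraries lay close together and its log2 fold change was 4.51 (SE 0.59, adjusted p = 0.00614). Cd53, a tetraspanin of leukocytes, went from 124, 161 and 237 CPM to 1663, 1748 and 2018 CPM (3.38, SE 0.48, adjusted p = 0.0116). Cybb, the catalytic subunit of the phagocyte oxidase, went from 491, 463 and 306 CPM to 1970, 3117 and 2240 CPM (2.54, SE 0.46, adjusted p = 0.0297). In both the groups were fully apart. With Gpnmb and Cd68, 5 of 28 macrophage markers rose and 0 fell, and the list's median was 1.79. Lyz2, the lysozyme of macrophages, overlapped between groups, with a naive range of 379 to 1232 CPM and an injured range of 762 to 5576 CPM (1.69, adjusted p = 0.413). The 28 markers summed to 4039, 3143 and 3515 CPM in naive and to 22746, 19338 and 22289 CPM in injured libraries. The part of macrophage content in the rises of other lists was not tested.

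Among the rises were also several receptors of immune cells, here gathered from different lists and from outside them. C3ar1, the receptor for complement fragment C3a, had 289, 173 and 157 CPM in naive and 1714, 1879 and 1678 CPM in injured libraries (3.09, SE 0.55, adjusted p = 0.0297). It was the 1 riser among 10 complement genes, whose median was -0.19. C1qc, a chain of the first complement component, overlapped between groups (206 to 523 CPM against 519 to 1655 CPM; 1.53, adjusted p = 0.293), and C1qb did too (1.02, adjusted p = 0.591). Tnfrsf1b, a receptor for tumour necrosis factor, was nearly constant in naive libraries at 42.7, 42.2 and 41.3 CPM and reached 601, 505 and 350 CPM after injury (3.53, SE 0.65, adjusted p = 0.0317). Cxcr4, the receptor for the chemokine Cxcl12, went from between 8.17 and 13.0 CPM to 131, 114 and 129 CPM (3.52, SE 0.69, adjusted p = 0.0377). Ptafr, the receptor for platelet-activating factor, went from 21.9, 38.5 and 33.9 CPM to 257, 269 and 209 CPM (2.96, adjusted p = 0.0242). Cd200r1, an inhibitory receptor of myeloid cells (3.27), and Cd84, a self-binding receptor of leukocytes (3.75), rose too. For Cd84 this held for one transcript; its most abundant transcript, which stood for the gene in the list, overlapped between groups (1.26, adjusted p = 0.721).

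Among 16 cytokines and chemokines, Cxcl2, which attracts neutrophils, rose and none fell; the list's median was 0.70. Its naive libraries were near the floor at 0.463, 1.61 and 1.40 CPM and its injured ones stood at 72.7, 80.4 and 50.0 CPM (5.85, SE 0.95, adjusted p = 0.0242). Ccl9 had 142 to 254 CPM against 419 to 678 CPM (1.45, adjusted p = 0.237), and Pf4 overlapped (-0.43, adjusted p = 0.862). Of 10 genes of the NF-kB response, Tnfaip2, named for its induction by tumour necrosis factor, rose: 1.94, 4.94 and 7.91 CPM in naive and 246, 317 and 153 CPM in injured libraries (5.59, SE 0.72, adjusted p = 0.00614). The inhibitor Nfkbia did not pass and its groups overlapped (-0.11, adjusted p = 0.942), and Cflar had groups apart at 0.95 (adjusted p = 0.313). Of 16 genes of the leukocyte cytoskeleton and adhesion, 1 rose and 0 fell, with a median of 1.58. This was Lcp1, which bundles actin, at 2.04, 3.89 and 2.59 CPM against 42.6, 70.6 and 29.6 CPM (4.06, SE 0.80, adjusted p = 0.0377). Nckap1l, part of the actin-nucleating WAVE complex of blood cells, had groups apart without passing (2.06, adjusted p = 0.0871), and Arpc1b had -0.96 (adjusted p = 0.501). None of 11 AP-1 and immediate-early genes passed; Fosl2 had 57.0, 185 and 133 CPM against 276, 269 and 279 CPM (1.14, adjusted p = 0.305), and Jund 0.62 (adjusted p = 0.706).

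Some genes of lipid storage and export rose, and some of lipid synthesis fell. Plin2, which coats lipid droplets, went from 24.3, 43.6 and 47.7 CPM to 380, 359 and 624 CPM (3.56, SE 0.46, adjusted p = 0.00614), and its processed transcript rose by 3.28. Abca1, which exports cholesterol, went from 247, 187 and 129 CPM to 1218, 1374 and 1114 CPM (2.72, SE 0.44, adjusted p = 0.0242). These were 2 of 13 genes of lipid uptake and efflux, with 0 lower and a median of 1.34. Lrp1, an endocytic receptor for lipoproteins and debris, had 192, 242 and 317 CPM against 567, 554 and 573 CPM (1.17, adjusted p = 0.181), and the lysosomal cholesterol carrier Npc2 overlapped (0.65, adjusted p = 0.562). With the 6 IP libraries alone 6 of the 13 rose. Vps13c, a protein of lipid transfer between membranes, also rose (2.84, SE 0.51, adjusted p = 0.0297).

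In the opposite direction, 2 of 19 cholesterol synthesis genes fell and 0 rose, with a list median of -2.05. Hmgcs1, the enzyme that makes HMG-CoA (chromosome 13, 119690446 to 119708082), went from 783, 1474 and 2810 CPM in naive libraries to 151, 116 and 342 CPM in injured ones. Library 3 was the highest in each group, and the log2 fold change was -3.06 (SE 0.62, adjusted p = 0.0416). Hsd17b7, a later enzyme of the pathway, went from 67.0, 146 and 164 CPM to 10.9, 12.5 and 27.2 CPM (-2.90, SE 0.53, adjusted p = 0.0304). Cyp51, a demethylase of the pathway, overlapped between groups (91.7 to 376 CPM against 42.3 to 114 CPM; -1.78, adjusted p = 0.265). Of the 19, 18 had a negative log2 fold change. All naive libraries lay above all injured ones in 14 of them, as in 14% of all tested transcripts. With the 6 IP libraries alone 11 fell, among them Sc5d (-3.41) and Fdps (-3.22).

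Fatty acid genes fell as well: 3 of 16, with 0 higher and a median of -1.70. Elovl7 and Elovl6 lengthen fatty acids and Fads1 desaturates them. Elovl7 went from 392, 242 and 225 CPM to 19.8, 33.1 and 37.0 CPM (-3.26, SE 0.63, adjusted p = 0.0377). Elovl6 went from 1166, 858 and 377 CPM to 117, 82.0 and 90.3 CPM (-3.05, SE 0.55, adjusted p = 0.0297). Fads1 went from 360, 606 and 530 CPM to 47.5, 59.5 and 122 CPM (-2.71, SE 0.53, adjusted p = 0.0377). Each had its 3 naive libraries above its 3 injured ones. The abundant desaturases did not pass: Scd1 had 1494 to 3282 CPM against 578 to 946 CPM (-1.85, adjusted p = 0.118), and Scd2 overlapped (-1.40, adjusted p = 0.268).

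**Figure D2:**
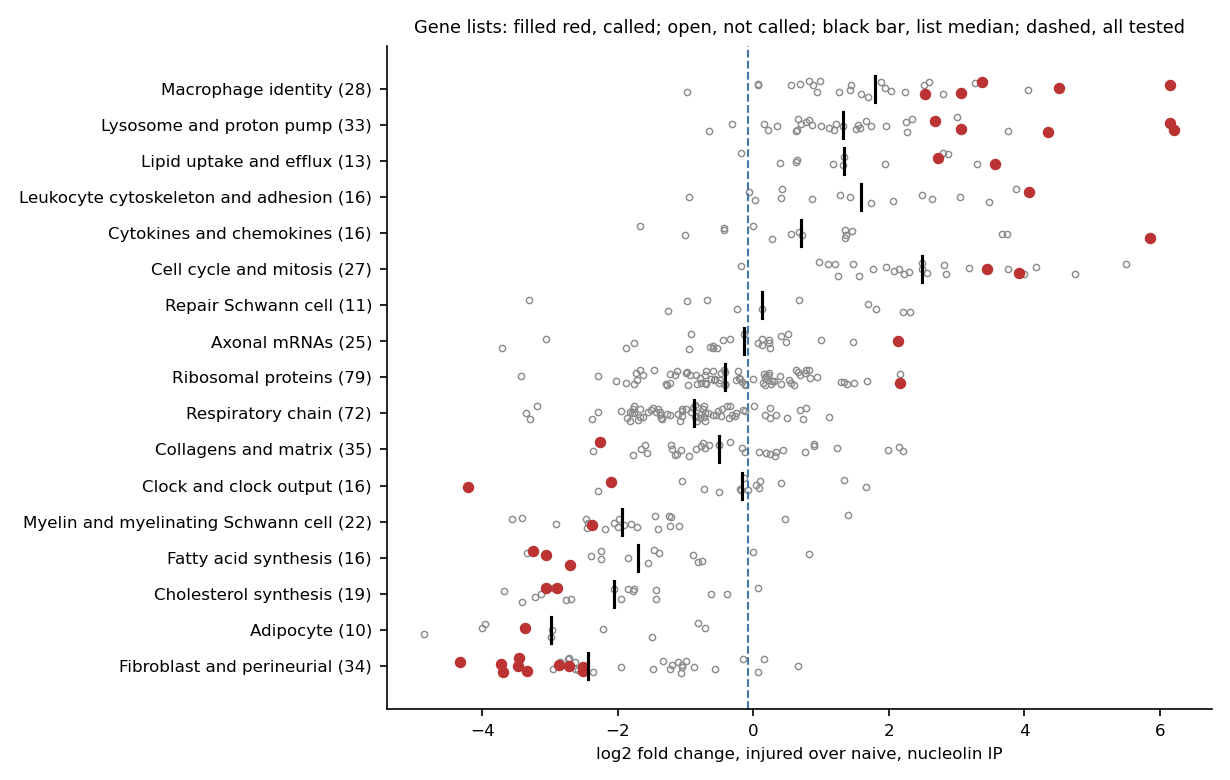
Log2 fold change, injured over naive, in nucleolin IP for the tested members of 17 gene lists (number of members in brackets); filled points passed the test, black bars are list medians and the dashed line is the median of all tested transcripts (-0.08). Cell cycle and macrophage members lie mostly to the right of the line (medians 2.49 and 1.79) and fibroblast and adipocyte members to the left (-2.43 and -2.98), while few points in any list are filled.

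Genes of dividing cells lay higher after injury, although few passed. Mki67, the proliferation antigen Ki-67 (chromosome 7, 135689784 to 135716361, minus strand, 14 exons), went from 41.8, 17.1 and 25 CPM to 541, 353 and 380 CPM. Library 1 was the highest in both groups, and the log2 fold change was 3.93 (SE 0.52, adjusted p = 0.00614). Kif20b, a kinesin of cell division, went from 17.4, 6.36 and 3.62 CPM to 128, 108 and 63.8 CPM (3.45, SE 0.67, adjusted p = 0.0377). These were the 2 of 27 cell cycle genes that passed. The list had a median of 2.49, and 25 of the 27 had every injured library above every naive one, as had 14.8% of all tested transcripts. Top2a, the topoisomerase of replicating cells, had 33.5, 9.31 and 9.90 CPM against 319, 217 and 176 CPM (3.75, adjusted p = 0.0914). Cenpe, a kinesin of the kinetochore, had 13.3, 19.8 and 10.6 CPM against 400, 268 and 122 CPM (4.18, adjusted p = 0.167). Both had groups apart. With the 6 IP libraries alone 13 of the 27 rose, among them Foxm1 (5.50), Ccna2 (4.74), Cenpe and Top2a. Tuba1c, an alpha-tubulin, went from 28.6, 18.5 and 20.0 CPM to 120, 140 and 215 CPM (2.83, SE 0.41, adjusted p = 0.0133).

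Promoter sequence is shown for called and abundant members of lists that carry a known motif, the 250 bases before the RefSeq start on GRCm38.p6, with matches in capitals. The motifs searched, on both strands and from 250 bases before to 50 after the start, were TTTGAA (cell cycle homology region core), TCACNCCAC (sterol regulatory element core) and TCACGTG (the CLEAR core of lysosomal genes). The Mki67 window (chr7:135716380-135716629, minus strand) holds 2 matches to TTTGAA, the Top2a window (chr11:99024190-99024439, minus strand) 2, and the Hmgcs1 window (chr13:119690101-119690350, plus strand) 1 match to TCACNCCAC.
Mki67: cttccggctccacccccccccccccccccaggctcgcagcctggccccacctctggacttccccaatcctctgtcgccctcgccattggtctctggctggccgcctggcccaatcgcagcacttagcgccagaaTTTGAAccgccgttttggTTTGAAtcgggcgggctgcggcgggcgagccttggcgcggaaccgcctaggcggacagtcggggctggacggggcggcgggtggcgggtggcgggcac
Top2a: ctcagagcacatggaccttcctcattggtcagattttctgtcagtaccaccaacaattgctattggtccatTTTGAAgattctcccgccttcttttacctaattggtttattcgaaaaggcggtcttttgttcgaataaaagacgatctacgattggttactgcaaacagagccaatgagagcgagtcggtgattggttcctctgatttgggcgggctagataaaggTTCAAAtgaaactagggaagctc
Hmgcs1: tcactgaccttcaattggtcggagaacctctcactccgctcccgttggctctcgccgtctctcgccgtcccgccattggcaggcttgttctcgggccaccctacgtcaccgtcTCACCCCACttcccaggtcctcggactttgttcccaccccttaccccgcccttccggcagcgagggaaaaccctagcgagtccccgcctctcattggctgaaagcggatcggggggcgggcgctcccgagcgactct
TTTGAA was found in 14 of 22 cell cycle genes with a promoter in the table, Mki67 and Kif20b (after its start) included, and in 20.2% of all 27025 genes with one. TCACNCCAC was found in 1 of 13 cholesterol genes and in 1.44% of all genes. TCACGTG was found in 8 of 24 lysosomal genes, Ctsd among them, and in 4.29% of all genes. A match describes these letters only; Hmgcs1's counted transcript starts 95 bases after the RefSeq start and that of Mki67 18 bases after.

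Genes of nerve sheath fibroblasts and perineurial cells, which wrap the nerve and its bundles, held the largest group of falls: 10 of 34 fell and 0 rose, with a median of -2.43. Crispld2, a secreted matrix protein (chromosome 8, 119992438 to 120052793, plus strand, 15 exons), went from 440, 688 and 451 CPM in naive libraries to 27.9, 38.0 and 53.0 CPM in injured ones. No library came near the other group, and the log2 fold change was -3.73 (SE 0.44, adjusted p = 0.00424). Inmt, which methylates indole amines, went from 29.4, 79.7 and 128 CPM to 1.59, 2.20 and 7.91 CPM (-4.33, SE 0.92, adjusted p = 0.0491). Rspo1, a secreted enhancer of Wnt signalling, went from 1950, 1536 and 198 CPM to 174, 80.0 and 30.8 CPM (-3.69, SE 0.78, adjusted p = 0.0465). For Rspo1 library 3 was the lowest in both groups, and naive library 3 was only just above injured library 1. Slc6a13, a transporter of GABA, went from 78.5, 106 and 57.7 CPM to 7.27, 5.31 and 9.13 CPM (-3.48, SE 0.73, adjusted p = 0.0457). Spock2, a matrix proteoglycan, fell by 3.46 on the log2 scale (adjusted p = 0.0419) and Fmod, which binds collagen fibrils, by 3.34 (adjusted p = 0.0297).

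The other 4 in that list were Angptl7 (-2.87), Gsn (-2.71), Scara5 (-2.51) and Cldn1 (-2.51). Gsn, the actin-severing gelsolin, was among the most abundant of them: 1792, 2702 and 6803 CPM in naive and 449, 469 and 805 CPM in injured libraries. Cldn1, a tight-junction protein of the perineurial barrier, was even across libraries, at 871, 1133 and 1076 CPM against 180, 191 and 170 CPM. The matrix proteoglycan Ogn had 5816, 6752 and 14344 CPM in naive and 702, 541 and 2475 CPM in injured libraries without passing (-2.86, adjusted p = 0.0985). Lum overlapped between groups (-1.11, adjusted p = 0.61). The 34 genes summed to 17422, 21175 and 38827 CPM in naive and to 4846, 3973 and 9528 CPM in injured libraries. Col1a2 (-0.34, adjusted p = 0.866) and Col3a1 (-0.84, adjusted p = 0.68) overlapped between groups, and of 35 collagen and matrix genes 1 fell, with a median of -0.51. The 1 that fell was Lama2, the laminin chain of the Schwann cell basal lamina, which went from 496, 368 and 459 CPM to 86.3, 84.3 and 104 CPM (-2.27, SE 0.37, adjusted p = 0.0242). Shisa3 (-3.32), Mt3, a zinc-binding metallothionein (-3.13), Myoc, myocilin (-3.09), and Cpxm2 (-2.87) fell outside the list.

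Myelin genes lay lower with 1 call. Cldn19, a tight-junction protein of Schwann cells, went from 208, 153 and 242 CPM to 31.2, 26.6 and 57.8 CPM (-2.38, SE 0.50, adjusted p = 0.0465). It was the 1 of 22 genes that fell, 0 rose and the median was -1.94. All naive libraries lay above all injured ones in 16 of the 22, as in 14% of all tested transcripts, and 1 had the reverse. The count depended on the fit: with the replicate block 14 of the 22 fell and 0 rose. Of all 11840 tested transcripts 180 fell and 154 rose with that block. With the IP libraries alone 4 fell and 0 rose. Qk, an RNA-binding protein needed for myelination, fell from 2063, 2692 and 3675 CPM to 631, 684 and 816 CPM (-1.98, SE 0.41, adjusted p = 0.0437); it and Ybx1 below were chosen after their values were seen. Gpm6a, a membrane glycoprotein, fell by 2.99 (adjusted p = 0.0304). Of 11 genes of repair Schwann cells none passed. Ncam1 had 1024, 421 and 108 CPM against 3132, 1379 and 484 CPM (1.69, adjusted p = 0.597) and Jun 0.67 (adjusted p = 0.546). Another 6 of the 21 genes in that list were in the injured table alone, so they were not compared. They were Gdnf, Gfap, Hmga2, Nes, Runx2 and Shh. The naive table alone held 0 of the list.

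Markers of other tissues and cell types gave 1 call. Car3, a carbonic anhydrase abundant in fat, went from 1658, 1750 and 3724 CPM to 294, 206 and 191 CPM (-3.37, SE 0.67, adjusted p = 0.0387), the 1 call among 10 adipocyte genes with a median of -2.98. The 10 summed to 4737, 5228 and 18245 CPM in naive and to 2085 to 2983 CPM in injured libraries. Much of naive library 3 was Cfd, at 8623 CPM there and 659 and 646 CPM in the other 2 (-2.99, adjusted p = 0.209). Fabp4 overlapped (-0.82, adjusted p = 0.789). Of 5 skeletal muscle genes none passed; they summed to 291, 263 and 928 CPM against 68.2, 10.8 and 84.1 CPM, with Acta1 at -3.88 (adjusted p = 0.115) and Ckm at -2.88 (adjusted p = 0.203). Of 4 red blood cell genes none passed (sums of 107, 174 and 469 CPM against 19.0, 25.2 and 107 CPM). Hbb-bt had -2.76 (adjusted p = 0.398) and Hbb-bs -2.79 (adjusted p = 0.202); these near-identical genes can share reads. None of 5 mast cell genes passed (Cma1 -1.92, Mcpt4 -3.12), and none of 2 lymphocyte genes (Cd4 3.26, Ighm -0.60). No neutrophil marker was listed in both tables. None of 12 endothelial and pericyte genes passed either: Rgs5 had 1.17 (adjusted p = 0.541) and Cdh5 0.27 (adjusted p = 0.798). Naive library 3 was the highest naive library in the sums of fat, muscle, blood and fibroblast genes, and their part in the falls was not tested.

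Clock genes gave 2 falls of 16, with a median of -0.16. Hlf, a transcription factor of circadian output (chromosome 11, 90336536 to 90390895), went from 258, 332 and 119 CPM to 7.27, 14.9 and 16.0 CPM (-4.22, SE 0.68, adjusted p = 0.0242). Nr1d1, the clock repressor REV-ERB alpha, went from 148, 122 and 150 CPM to 42.5, 20.7 and 34.7 CPM (-2.10, SE 0.41, adjusted p = 0.0377). The transcript shares 9.67% of its exon bases with Thra on the other strand, and no source used here says whether counting was stranded. Nr1d2 did not pass (-0.72, adjusted p = 0.572), nor did Bhlhe40, which was higher after injury in all libraries (1.34, adjusted p = 0.107). No source used here gives the hour of dissection.

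Axonal mRNAs, those reported from axons of cultured or intact neurons, gave 1 call: 1 of 25 rose, 0 fell and the median was -0.14. Thy1, a surface glycoprotein of neurons and of some immune and stromal cells, went from 89.7, 48.0 and 63.3 CPM to 202, 330 and 348 CPM (2.13, SE 0.42, adjusted p = 0.0377). Actb had 1885, 3477 and 5685 CPM against 7720, 10418 and 12619 CPM (1.48, adjusted p = 0.345), and Vim overlapped (-0.63, adjusted p = 0.755). Basp1, a membrane protein of growing axon tips, rose outside the list from 13.1, 73.0 and 63.7 CPM to 294, 446 and 699 CPM (3.26, SE 0.63, adjusted p = 0.0377). None of the 3 neuronal markers passed, and both Snap25 (460, 251 and 29.1 CPM against 58.6, 12.1 and 4.73 CPM; -3.30, adjusted p = 0.53) and Calca (-2.55, adjusted p = 0.717) overlapped between groups.

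None of 5 mRNAs tied to growth and injury signalling in axons passed. Ncl, which encodes nucleolin, had 4629, 3110 and 790 CPM in naive and 4589, 1638 and 1051 CPM in injured libraries (-0.23, SE 0.69, adjusted p = 0.941). Kpnb1, the import factor importin beta1, had 213, 353 and 301 CPM against 273, 311 and 364 CPM (0.13, SE 0.35, adjusted p = 0.931). Mtor had 43.2, 69.8 and 64.7 CPM against 32.2, 22.5 and 39.0 CPM, with groups that did not overlap (-0.92, SE 0.53, adjusted p = 0.531). Rhoa had -0.54 (adjusted p = 0.712) and Ptbp1, at 0.443 to 0.570 CPM against 1.39 to 2.10 CPM, had 1.90 (adjusted p = 0.309). None of 12 reported nucleolin targets passed (App -0.35, Ccni 0.23), and none of 21 nucleolar and ribosome biogenesis genes, of which Gnl3 had 1.32 (adjusted p = 0.23).

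Genes of basic cell machinery held few calls. Of 79 ribosomal protein genes, Rps24 rose, from 64.1, 68.3 and 104 CPM to 355, 309 and 401 CPM (2.17, SE 0.37, adjusted p = 0.0256); the list median was -0.42, with Rplp1 at 0.83 and Rpl4 at -0.49. None of 72 respiratory chain genes passed, and 62 of them had a negative log2 fold change. Their median was -0.88, against -0.08 for all tested transcripts (Cox8a -1.77, Cox6b1 -1.05). None passed among 56 translation factors (Eef2 0.08, Eef1a1 -0.17), 46 splicing factors (Sf3b1 1.26, Hnrnpa2b1 0.41), 14 histones (Hist1h2bc -0.46, Hist1h1c -0.20), 9 glycolysis genes (Tpi1 0.62, Slc2a1 -1.20) and 8 nuclear noncoding RNA genes (Malat1 0.18, Snhg11 -2.87). Over all lists 38 of 687 distinct members passed, 18 higher and 20 lower, where 0.828% of all tested transcripts passed. With the 6 IP libraries alone 96 members passed (47 and 49), where 4.26% of all tested transcripts did.

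Several large changes lay outside the lists. Arl4c, a small GTPase, went from 16.5, 23.1 and 14.8 CPM to 290, 308 and 298 CPM, with little spread in either group (4.04, SE 0.78, adjusted p = 0.0377). Fbn2, a fibrillin of elastic microfibrils, went from 71.6, 33.6 and 22.1 CPM to 432, 418 and 364 CPM (3.25, SE 0.55, adjusted p = 0.0256). Neurl3, a ubiquitin ligase, rose by 3.46 (adjusted p = 0.0419). Clip3, which binds microtubule tips and Golgi membranes, went from 656, 808 and 331 CPM to 29.7, 29.1 and 41.5 CPM (-4.16, SE 0.78, adjusted p = 0.0333). Sema5a, a guidance cue of the semaphorin family (chromosome 15, 32244813 to 32696341, plus strand, 23 exons), went from 6004, 3399 and 1219 CPM to 560, 355 and 277 CPM. Library 3 was the lowest in both groups and the log2 fold change was -3.15 (SE 0.64, adjusted p = 0.0419). Snhg18, which starts just upstream of it on the opposite strand, fell by 1.97 (adjusted p = 0.0377). The receptor of ADP P2ry1 (-3.50), the G protein subunit Gnai1 (-2.81), the copper oxidase Cp (-2.78) and the ubiquitin ligase substrate receptor Gid4 (-2.74) fell too. P2ry1 shares 25.5% of its exon bases with Gm37035 on the other strand. The remaining rises had log2 fold changes from 1.73 (Fzr1) upward and the remaining falls reached down in size to -1.72 (Endod1).

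Among rises, Cenpk, a protein of the kinetochore, had the largest fitted change and the fewest counts. It had 0, 1 and 1 counts in naive IP libraries and 94, 47 and 87 in injured ones. The ratio of the groups was 102, with a 95% counting interval of 27.9 to 846, which covers counting error only. Its naive blocked libraries held 42, 149 and 67 counts and its injured blocked ones 12, 17 and 65 (log2 fold change -1.41). The naive table holds only transcripts with at least 5 counts in all 3 libraries of IP or of blocked IP. Cenpk was therefore listed through its naive blocked counts alone. That filter fixed a naive IP below blocked IP, so these values cannot show whether the background shared the rise. In input the log2 fold change was 0.24 (adjusted p = 0.929).

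The most abundant transcripts of the IP were not among the calls. The 10 with the highest mean CPM included Malat1, Cat, Yam1, Fth1, Zbtb20, Cyb5r3, Bgn, Slc6a6 and Col1a2. Cat, which encodes catalase, had 41989, 21000 and 4828 CPM in naive and 15236, 7419 and 2481 CPM in injured libraries (-1.43, adjusted p = 0.466), where blocked IP held means of 841 and 307 CPM. Zbtb20, a transcriptional repressor, had 29457, 17128 and 4228 CPM against 6468, 5514 and 1951 CPM (-1.87, adjusted p = 0.25). Slc6a6, the taurine transporter, had 8213, 5663 and 1048 CPM against 12948, 12902 and 2609 CPM (0.93, adjusted p = 0.652). For Cat, Zbtb20, Cyb5r3, Bgn and Slc6a6 library 3 was the lowest of its group in both naive and injured nerve. Fth1, the ferritin heavy chain, ran the other way, with library 3 the highest: 10576, 15777 and 36807 CPM against 479, 397 and 9218 CPM (-2.65, adjusted p = 0.418). Yam1, handled as a possible site of ribosomal RNA reads, had 941 to 5876 CPM against 11328 to 37166 CPM (2.99, adjusted p = 0.113).

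The differences in the IP were next set beside those in its background and in input. In blocked IP 184 transcripts passed (1.55%): 87 rose (0.735%) and 97 fell (0.819%). Of the 47 rises in IP, 33 also rose in blocked IP, and of the 51 falls 36 also fell there. Input, fitted with the nucleolin libraries in 1 model of 18, gave 318 rises (2.92% of 10891) and 340 falls (3.12%), 6.04% in all. In that model the nucleolin IP itself gave 211 rises (1.94%) and 263 falls (2.41%), 4.35% in all. In input 46 of the 47 rises and 47 of the 51 falls passed in the same direction. The exceptions were Cenpk among rises, and among falls Sema5a (-1.65 in input), Gid4 (-1.22), Spock2 (-2.19) and Ybx1 (-1.12), an RNA-binding protein of the cold-shock family. The median log2 fold change of the 47 rises was 2.96 in IP, 2.66 in blocked IP and 3.26 in input, and that of the 51 falls was -2.73, -2.53 and -2.68. IP, blocked IP and input came from extracts of the same kind and the members were picked on their IP values, so these medians are a description. Yam1, the possible site of ribosomal RNA reads, stood at a mean of 18496 CPM in naive input and 373330 CPM (SD 407960, n = 3) in injured input. It thus took a large and uneven part of the injured input counts.

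**Figure D3:**
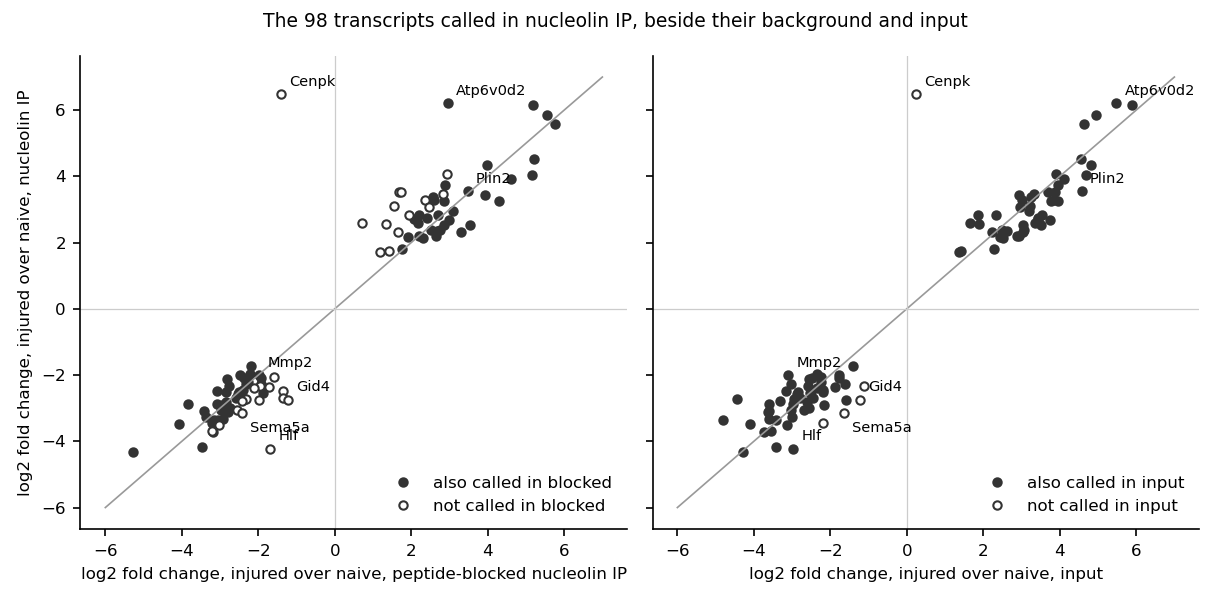
Log2 fold change, injured over naive, in nucleolin IP (vertical axis) for the 98 called transcripts against that in blocked IP (left) and in input (right); filled points also passed there and the line marks equal change. Most points lie near the line. Cenpk lies far above it on both sides, and Atp6v0d2 and Hlf lie off it for blocked IP.

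The difference between IP and background was tested directly. No transcript passed for a change in IP beyond that in blocked IP by edgeR, with 302 of 11840 (2.55%) at an unadjusted p under 0.05 and a smallest adjusted p of 1.00. DESeq2 called 20, of which 7 were higher and 13 lower. In most of these 20 a blocked group was at or near 0 counts. Cenpk (8.08) and Celsr3 (8.15) were among the higher ones, both in the naive table only through blocked IP. For IP against input no transcript passed by edgeR (87 of 10891 at an unadjusted p under 0.05, 0.799%) or by DESeq2. Both edgeR shares lie below what a cut of 0.05 gives with uniform p values. The absence of calls therefore does not show equal change. Single values stand as estimates with normal intervals. These are narrower than the quasi-likelihood test behind the p values implies, so an interval can leave out 0 where that p is above 0.05. The rise of Atp6v0d2 in IP exceeded that in blocked IP (15.9 to 124 CPM, 2.96) by 3.25, with a 95% interval of 1.70 to 4.81 and an unadjusted p of 0.00122. Against input (7.96 to 355 CPM) it exceeded by 0.64 (-0.90 to 2.19). The fall of Hlf exceeded that in blocked IP by 2.53 (difference -2.53, interval -4.21 to -0.85, unadjusted p = 0.0112). Gid4 had -1.53 against blocked IP (interval -2.86 to -0.20) and -1.61 against input (interval -2.74 to -0.49). Gpnmb had 0.96 (interval -0.87 to 2.78) and Crispld2 -0.55 (interval -1.65 to 0.54) against blocked IP. Both of these intervals span 0 and are wide, so equal change was not shown.

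Low blocked counts led the interaction with background. P4ha2 (a retained-intron transcript), Gm26816, Gm26790, Iqce, Gm10548, Cln3 (a processed transcript) and Sh2d3c had means of 0 to 0.0376 CPM in naive blocked IP. These transcripts were in the naive table only through their IP counts. Their IP groups differed by less: P4ha2 had 5.19 ± 2.23 CPM in naive and 2.10 ± 0.66 CPM in injured IP (SD, n = 3), and Gm26816 15.0 ± 9.13 against 18.1 ± 4.96 CPM. Celsr3, a cadherin with a role in axon guidance, had 0.0926, 0.0950 and 0 CPM in naive IP and 17.6, 14.6 and 4.94 CPM in injured IP. Its adjusted p of 0.0717 by edgeR was for injured against naive within IP, not for the interaction. Against input the smallest unadjusted values belonged to Cenpk (6.16), a retained-intron transcript of Rps14 (4.09) and Celsr3 (5.76). All of these were in the naive table only through blocked IP, with few counts in naive IP. Creb5 (-2.0), Dusp6 (-1.17), Gtf2ird2 (2.99), the chemokine Ccl7 (-1.86), Gid4, Lamb2 (1.58) and Igf2 (-3.21) followed. Dusp6, a phosphatase of the MAP kinase ERK, was at 203 ± 44.3 CPM in naive and 188 ± 17.9 CPM in injured IP, while input went from 215 ± 34.2 to 424 ± 85.2 CPM.

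Few called transcripts were much more abundant in IP than in blocked IP. At a ratio of means of at least 3, a level chosen after seeing the data, were 4 of the 51 falls in naive nerve, among them Rspo1 (9.47), Sema5a (6.45) and Clip3 (4.88). In injured nerve the ratios of these 3 were 6.81, 3.88 and 3.03. Of the 47 rises, Cybb reached it in naive nerve (3.18), and Atp6v0d2 (6.28), C3ar1 (3.47) and Cenpk (3.17) reached it in injured nerve. Of the 97 called transcripts with at least 20 CPM over the IP libraries 5.16% reached it in naive nerve, against 10.8% of the 6017 tested transcripts at that level. In all 4 of those falls naive library 3 was the lowest naive library. Among the other 47 falls it was the lowest in 12, library 1 in 24 and library 2 in 11.

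**Figure D4:**
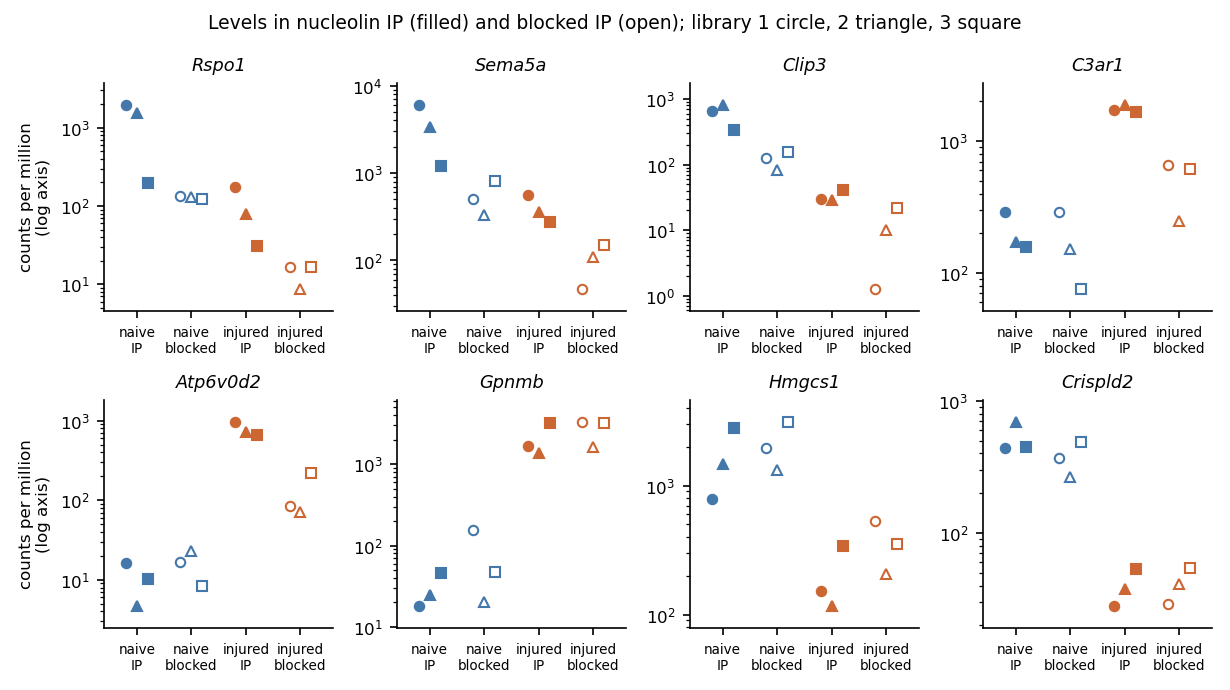
CPM (log axis) by library in naive and injured nucleolin IP (filled) and blocked IP (open) for 3 falls with IP above blocked IP and the rise C3ar1 (top row) and for Atp6v0d2, Gpnmb, Hmgcs1 and Crispld2 (bottom row). In the 3 falls the naive IP lies above the blocked IP, least so for library 3 (square). For Gpnmb, Hmgcs1 and Crispld2 the IP and blocked IP overlap within each condition.

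How many transcripts passed rested on single libraries. Leaving out 1 naive IP library (1, 2 or 3) left 16, 2 and 27 calls, and leaving out 1 injured IP library left 10, 9 and 25. Without naive blocked library 1 there were 186, and without injured blocked library 2 or 3 there were 61 and 64. Atp6v0d2 and Crispld2 were called in all 12 of these fits, and Ctsd, Gpnmb, Mki67, Mpeg1, Plin2 and Tnfaip2 in 11. None of the 98 changed direction in any of them. DESeq2 called 738 transcripts (7.45%), 338 rises (3.41%) and 400 falls (4.04%), which included 97 of the 98.

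**Figure D5:**
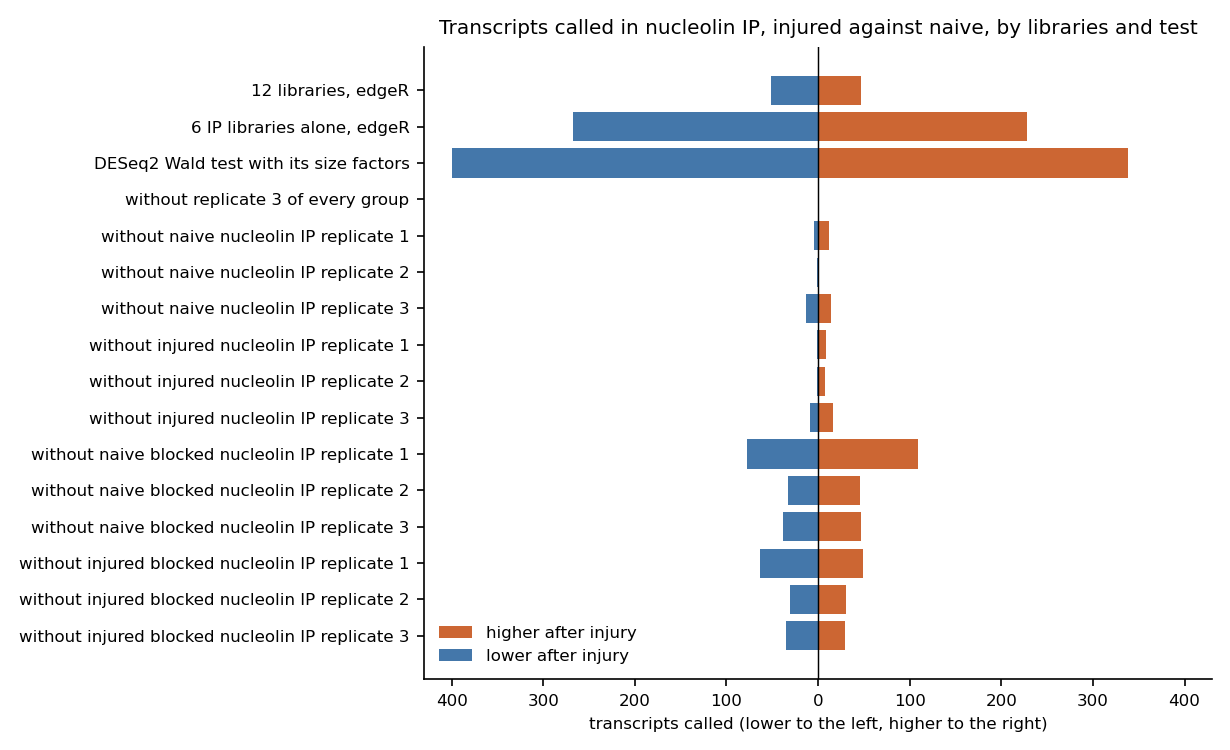
Number of transcripts called in nucleolin IP, lower after injury to the left and higher to the right, for the fit of 12 libraries (47 higher, 51 lower), for other sets of libraries and for DESeq2. The bars shrink to 2 calls without naive IP library 2 and to 0 without library 3 of every group, and grow to 738 with DESeq2.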

How the data were processed

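RNA of nucleolin IP, blocked IP and input was sequenced. The authors deposited raw read counts per transcript, 1 table for naive and 1 for injured nerve. CASAVA 1.8.2, edgeR and the builds mm10 and GRCm38 are named per the submitters' processing notes; the aligner, counter, annotation and strand setting were not given in the sources used here. Each table holds only transcripts with at least 5 counts in all 3 libraries of IP or of blocked IP, which leaves out transcripts low in either condition. Tables were joined by transcript; 48 per-sample columns were not used. The column taken as naive blocked library 3 has PCP in place of ctrl in its name; without it 85 transcripts passed in nucleolin IP (47 higher, 38 lower), and 34 list members.

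Counts of 12 nucleolin libraries were fitted with edgeR 4.0.16 in R 4.3.3 (TMM, filterByExpr, quasi-likelihood test, two-sided, Benjamini-Hochberg adjustment, threshold 0.05), and with input as 18 libraries. Fold changes are log2, injured over naive; SE is the fold change over the square root of F; intervals are 95% normal intervals. CPM used TMM-scaled library sizes. DESeq2 1.42.0, other scalings, no filter, gene sums, a replicate block and each library left out were alternatives. The text names the 25 largest called changes each way, called list members, and 2 uncalled members of highest mean CPM per list, the 10 most abundant and 10 per interaction; transcripts called only with the block are counted, not named; others are said to be chosen afterwards. Coordinates are from GENCODE M21 and promoters from RefSeq GRCm38.p6. The fit was run on simulated counts with known changes placed in injured IP only. The simulated libraries were independent, so effects shared by a replicate number were not covered. Members and lists were chosen with earlier results of these data known. Intervals of count ratios cover counting error only. Some genes that this rule would name are not reported here.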

Additional observations from a re-analysis of the deposited data

How the results depend on the processing

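None of the 98 called transcripts changed direction under the alternatives fitted per transcript; DESeq2 gave an adjusted p for 97 of them, and direction was not compared for gene sums. In nucleolin IP 98 calls became 96 with edgeR's RLE factors, 102 with library totals (of which 92 were shared in each case), and 98 with no filter, with a minimum of 1 CPM or without Yam1, Lars2 and Gm15564; gene sums gave 107. The count was 495 with the 6 IP libraries alone, 738 with DESeq2 (1962 transcripts had no adjusted p) and 0 without replicate 3 of every group, the cause of which was not tested. Leaving out 1 library gave 2 to 186 calls. For the change in IP beyond blocked IP, 0 by edgeR became 20 with DESeq2, and leaving out 1 library gave 0 to 5, the 5 without naive blocked library 3. For IP against input it was 0 under each alternative run. Of 687 list members tested in the main fit, 38 passed there. The count was 96 with the 6 IP libraries alone, 130 with DESeq2 and 0 without replicate 3 of every group. With 1 library left out it was 2 to 54. These alternatives for the lists were chosen after seeing the data. Library totals gave 54 higher and 48 lower calls, with a median of all transcripts of -0.01 against -0.08, and the median of IP against input was 0.36 with them against -0.09.

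Same-numbered naive and injured IP libraries had deviations correlated at 0.28, 0.0975 and 0.495. Each naive library correlated best with the injured library of its own number. Injured library 2 alone correlated slightly better with another number, naive library 1 (0.111). The numbers were not taken as pairs in the main fit, so any effect shared by a number stayed in its estimate of spread. With the replicate block 334 of 11840 transcripts passed, 98 of the 98 among them, and 92 of 687 list members. Where a library is left out of a group of 3, its group rests on 2.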

Other observations

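Transcripts listed in only one of the nucleolin tables were not compared; 3979 were in the injured table alone and 2319 in the naive table alone. Several members of the lists were among them, and their counts stand as values with no fold change or test. In the injured table alone was Arg1, an arginase of alternatively activated macrophages, with 2380, 3404 and 12114 counts in IP libraries 1 to 3 and 7993, 5563 and 12931 in blocked IP. Clec4d, a lectin receptor of myeloid cells, had 1340, 888 and 1582 counts in IP and 1571, 1143 and 1821 in blocked IP. Il1b, the cytokine interleukin-1 beta, had 450, 611 and 498 counts in IP and 450, 819 and 547 in blocked IP. IP and blocked IP overlapped for these 3. Irg1, which makes itaconate in activated macrophages, had 627, 772 and 804 counts in IP and 4, 397 and 824 in blocked IP, where library 1 was nearly empty. Hmga2, a chromatin protein of growing cells, had 570, 434 and 140 counts in IP and 0, 62 and 38 in blocked IP. The neutrophil genes S100a8 (84, 458 and 481 counts in IP) and Retnlg (460, 236 and 671) and the replication gene Rrm2 (313, 813 and 1114) were also in the injured table alone. Stat3, a transcription factor of injury signalling, was there with 118, 44 and 28 counts.

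In the naive table alone were Sqle, an enzyme of cholesterol synthesis, with 132, 91 and 82 counts in IP and 3, 333 and 75 in blocked IP, and Prx, a scaffold protein of myelinating Schwann cells, with 30, 108 and 99 in IP and 810, 28 and 230 in blocked IP. For both the blocked IP libraries differed from each other more than the IP libraries did.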
